A study of Mus musculus with 28 samples.

Results

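Complex I of the respiratory chain was described through its nuclear subunit genes, taken as the genes whose annotated symbol starts with Ndufa, Ndufb, Ndufc, Ndufs or Ndufv, with the Ndufaf assembly factors left out. The rule named 36 of the 18193 genes that had a probe set with 1 gene symbol. Where a gene had several probe sets, the one with the highest mean signal over the arrays stood for it. Total RNA from frozen mouse hearts was measured on 28 arrays of 1 colour, 1 per sample, in 4 groups of 7, and the design text of the series counts the samples as individuals. They were controls without treatment, controls that received WY14643, del337TR without treatment, and a treated strain group whose label, del337 with WY14643, leaves off the last letters of the strain name. WY14643 is a synthetic agonist of PPARalpha, the nuclear receptor that switches on genes of fatty acid use, and the labels of the strain name a deletion at 337TR, with TR read here as thyroid hormone receptor from the series title. The series title gives resistance to thyroid hormone and PPARalpha activation as its subject. Age, sex, dose, duration of treatment, the vehicle of the controls and the promoter or cell type that carries the altered receptor were not stated in the labels. Values are the deposited scaled intensities, called signals below, and differences are on the log2 scale, where 0.15 stands for 1.11-fold.

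Complex I takes electrons from NADH, passes them along a chain of iron-sulphur clusters to ubiquinone, and uses the energy to pump protons across the inner mitochondrial membrane. It has the shape of an L, with an NADH-oxidising N module and a quinone-reducing Q module in the arm that reaches into the matrix, and a proximal and a distal part of the pump in the membrane arm. A small core is conserved from bacteria, and the many further subunits stabilise and assemble the complex. Heart muscle depends on it because contraction runs mainly on mitochondrial ATP. The core proteins of the membrane arm are encoded by mitochondrial DNA, and no probe set with 1 symbol named any of those genes here. Some nuclear subunits are not analysed here.

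Promoter windows of 4 members are printed because each held a recognition sequence of a factor known to regulate nuclear genes of the respiratory chain. They come from RefSeq (build GRCm38.p6) and run from 250 bases before to 50 after the start of transcription, with the match in capitals. The window of Ndufs7 lies at chr10:80249199-80249498 on the plus strand and holds a YY1 sequence (AANATGGCG). That of Ndufa8 lies at chr2:36049289-36049588 on the minus strand and holds an NRF1 sequence (GCGC and TGCGC with any base between them). In Ndufb2 the window at chr6:39592315-39592614 on the plus strand holds a sequence of the estrogen-related receptors (AAGGTCA). In Ndufb7 the window at chr8:83566508-83566807 on the plus strand holds a sequence of ETS factors such as GABP (CCGGAAG).
Ndufs7: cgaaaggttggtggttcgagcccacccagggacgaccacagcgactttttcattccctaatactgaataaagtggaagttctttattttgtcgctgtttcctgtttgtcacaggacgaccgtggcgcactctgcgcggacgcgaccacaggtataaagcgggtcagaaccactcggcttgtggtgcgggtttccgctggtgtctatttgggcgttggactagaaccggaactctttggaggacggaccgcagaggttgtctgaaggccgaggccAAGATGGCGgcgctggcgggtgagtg
Ndufa8: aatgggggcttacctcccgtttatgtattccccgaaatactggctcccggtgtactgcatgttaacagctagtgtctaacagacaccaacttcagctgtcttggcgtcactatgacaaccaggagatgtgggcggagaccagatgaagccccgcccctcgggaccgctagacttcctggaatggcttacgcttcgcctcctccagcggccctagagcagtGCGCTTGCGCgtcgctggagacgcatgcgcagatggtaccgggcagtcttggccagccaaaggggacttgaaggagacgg
Ndufb2: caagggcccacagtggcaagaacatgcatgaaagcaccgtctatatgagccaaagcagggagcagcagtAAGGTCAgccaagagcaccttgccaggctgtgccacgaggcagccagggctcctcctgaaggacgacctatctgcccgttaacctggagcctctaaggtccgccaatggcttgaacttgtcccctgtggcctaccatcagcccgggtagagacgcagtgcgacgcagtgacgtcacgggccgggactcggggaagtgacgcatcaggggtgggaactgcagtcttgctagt
Ndufb7: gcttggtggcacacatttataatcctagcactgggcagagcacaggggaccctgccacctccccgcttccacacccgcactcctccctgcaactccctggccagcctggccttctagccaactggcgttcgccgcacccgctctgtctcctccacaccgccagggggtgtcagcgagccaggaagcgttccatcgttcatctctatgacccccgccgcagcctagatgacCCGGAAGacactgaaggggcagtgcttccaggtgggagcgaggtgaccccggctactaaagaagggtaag

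Both strands of these windows were searched for all members found in RefSeq's table. Windows were found for 32 of the 36 members, and Ndufa2, Ndufa4l2, Ndufb9 and Ndufs1 had none. The YY1 sequence stood in 6 of the 32 members (Ndufa7, Ndufa9, Ndufb11, Ndufc1, Ndufs4 and Ndufs7), or 18.8%, beside 2.76% of all 27025 genes with a window. The NRF1 sequence stood in 5 members (Ndufa5, Ndufa6, Ndufa8, Ndufb4 and Ndufs5), or 15.6%, beside 5.19% of all genes. The receptor sequence AAGGTCA stood in 3 members (Ndufb2, Ndufb4 and Ndufs5), or 9.38%, beside 5.38%. The ETS sequence stood in 4 members (Ndufb6, Ndufb7, Ndufs3 and Ndufs8), or 12.5%, beside 9.93%. GC boxes (GGGCGG) stood in 15 members, or 46.9%, beside 38.2%. The direct repeat that PPARalpha binds with RXR (2 copies of AGGTCA with any base between them) was searched as well, shares AGGTCA with the receptor sequence, and had no exact match among the members and matches in 0.0481% of all genes. These are matches of letters in a window of 300 bases, and binding was not measured.

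No subunit gene passed the test in any comparison. limma's moderated test, with p adjusted by Benjamini and Hochberg over all 45037 probe sets and a threshold of 0.05, called 0 of 36 members in each of 5 comparisons, and its F test for any difference among the 4 groups called 0 of 36 as well, with 0 at an unadjusted p under 0.05. The lowest F test p was 0.0676, for Ndufb7 (adjusted p = 0.684), and over all probe sets that F test called 0.00222% at the adjusted threshold and 7.54% at the unadjusted one. The differences were small and mostly shared a sign. With WY14643 in controls all 36 members were higher, by a median of 0.15, and with WY14643 in del337TR 28 were higher, by a median of 0.036. The p-values measure the spread between the samples of a group.

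The tissue label was checked against cell type markers. All 15 ventricular cardiomyocyte markers were bright, with mean signals from 5279 for Ryr2 to 17751 for Myl3, while the 7 skeletal muscle markers had mean signals of at most 55.6, below every array's median signal (60.1 to 77.8). Summed over the 15 ventricular markers, the signal ran from 166546 to 228200 in control, from 192634 to 240417 in control with WY14643, from 174460 to 220819 in del337TR and from 172268 to 276813 in del337 with WY14643. Atrial markers differed widely between arrays, with sums from 4359 to 53946. Sums over the other lists ran from 18196 to 27604 for 9 fibroblast markers, from 4309 to 6847 for 8 endothelial markers, from 8495 to 12359 for 6 markers of smooth muscle and pericytes, from 3097 to 5339 for 7 leukocyte markers and from 7848 to 13865 for 5 adipocyte markers. The adipocyte sum was mostly the signal of Fabp4, whose mean was 9271, while the median of the 5 markers' mean signals was 69.3. That sum therefore describes Fabp4 more than the list, and no adipocyte content is read from it. In bulk tissue, fewer cells of a type and less RNA per cell cannot be told apart. Xist and Eif2s3y separated the arrays into female and male, with 2 females of 7 in control, 3 in control with WY14643, 4 in del337TR and 1 in del337 with WY14643.

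The subunits varied together from array to array. As the mean log2 signal of the 36 members, the arrays stood at 12.18 to 12.51 in control (mean 12.34 ± 0.12, SD, n = 7), 12.37 to 12.69 in control with WY14643 (12.49 ± 0.10), 12.26 to 12.51 in del337TR (12.39 ± 0.078) and 12.26 to 12.70 in del337 with WY14643 (12.42 ± 0.15). All 4 groups overlapped, and the untreated del337TR arrays lay within the range spanned by the controls. The highest arrays were replicate 4 of del337 with WY14643 and replicate 7 of control with WY14643. Those same arrays had the highest and the next highest sum of ventricular markers, and the control replicate 7 with WY14643 also had the highest ratio of actin 3' to 5' signal, which reflects RNA integrity, at 1.82.

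**Figure D1:**
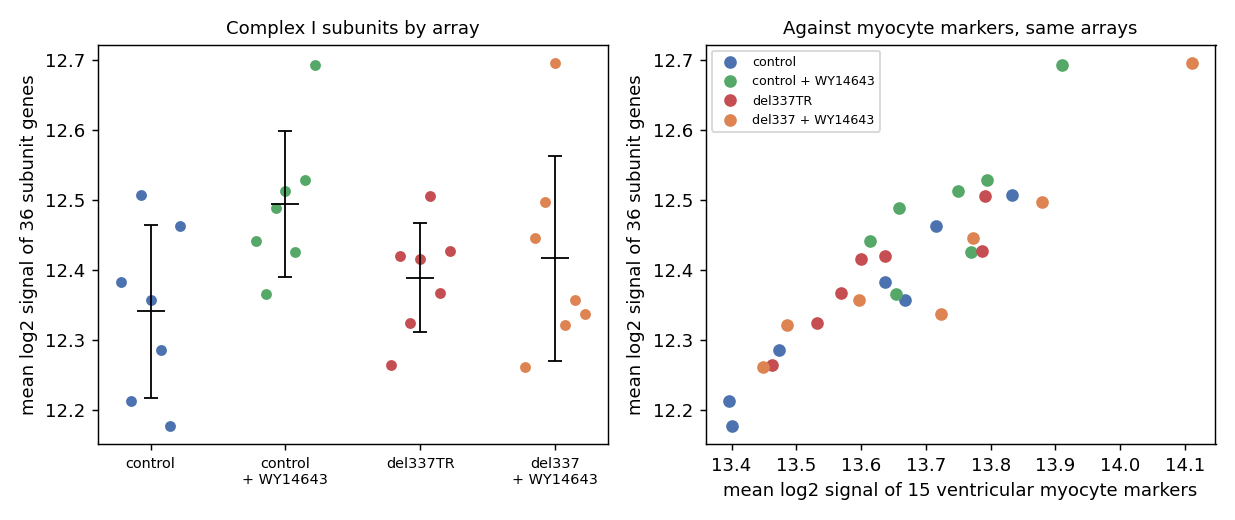
Left, mean log2 signal of the 36 subunit genes on each array by group, with the group mean and SD as bars (n = 7 each). Right, the same values against the mean log2 signal of 15 ventricular myocyte markers on the same arrays. The groups overlap, and the 2 highest arrays, del337 with WY14643 replicate 4 and control with WY14643 replicate 7, are high on both axes.

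After group means were removed, the median correlation between members over the 28 arrays was 0.75 (630 pairs), and 478 pairs had a correlation above 0.5. Among the 32 members with a mean signal above 1000 the median was 0.78, and 0.70 without the 2 arrays named above. The subunit that followed the other bright members most closely was Ndufab1, the mitochondrial acyl carrier protein (r = 0.96), followed by Ndufb9 (0.95) and Ndufb2 (0.94). Ndufb6 (0.48), Ndufs5 (0.33), Ndufb1 (0.015), Ndufb4 (-0.24) and Ndufa4l2 (-0.25) followed them least, and the last 4 were the 4 dim members. The same measure over pairs of genes was 0.82 within complex III and cytochrome c, 0.94 within complex IV, 0.87 within ATP synthase and 0.15 within the assembly factors of complex I. The mean of the bright members also followed the mean of the ventricular markers over the 28 arrays (r = 0.94, rho = 0.93; r = 0.91 without the 2 arrays farthest from the median of the markers). It followed the actin 3' to 5' ratio less (r = 0.41), and at 0.17 without control with WY14643 replicate 7 and control replicate 7. All these values share the arrays, their scaling and their RNA, so they are given as a description.

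WY14643 in controls gave the most uniform pattern, with every subunit higher by a little and none past the threshold. The 36 differences ran from 0.022 for Ndufs5 to 0.26 for Ndufb7, with a median of 0.15 and a median standard error of 0.093, beside a median of -0.033 and 44.6% higher over all probe sets. The lowest adjusted p was 0.698, and 0% of all probe sets were called. At an unadjusted p under 0.05, 9 members were higher and none lower, beside 2.39% of all probe sets higher and 4.36% lower. The 9 were Ndufa12 and Ndufv2 of the N module, Ndufs7 of the Q module, Ndufa1 and Ndufa8 of the proximal arm, and Ndufb5, Ndufb7, Ndufb8 and Ndufb10 of the distal arm. No member had groups without overlap, beside 0.0533% of all probe sets higher and 0.0333% lower. For the probe sets used, the 95% intervals of single members reached at most 0.50. Another bright probe set of Ndufv2, with a mean signal of 7790, stood at 0.41 ± 0.13 (limma adjusted p = 0.698), above the value of Ndufb7.

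**Figure D2:**
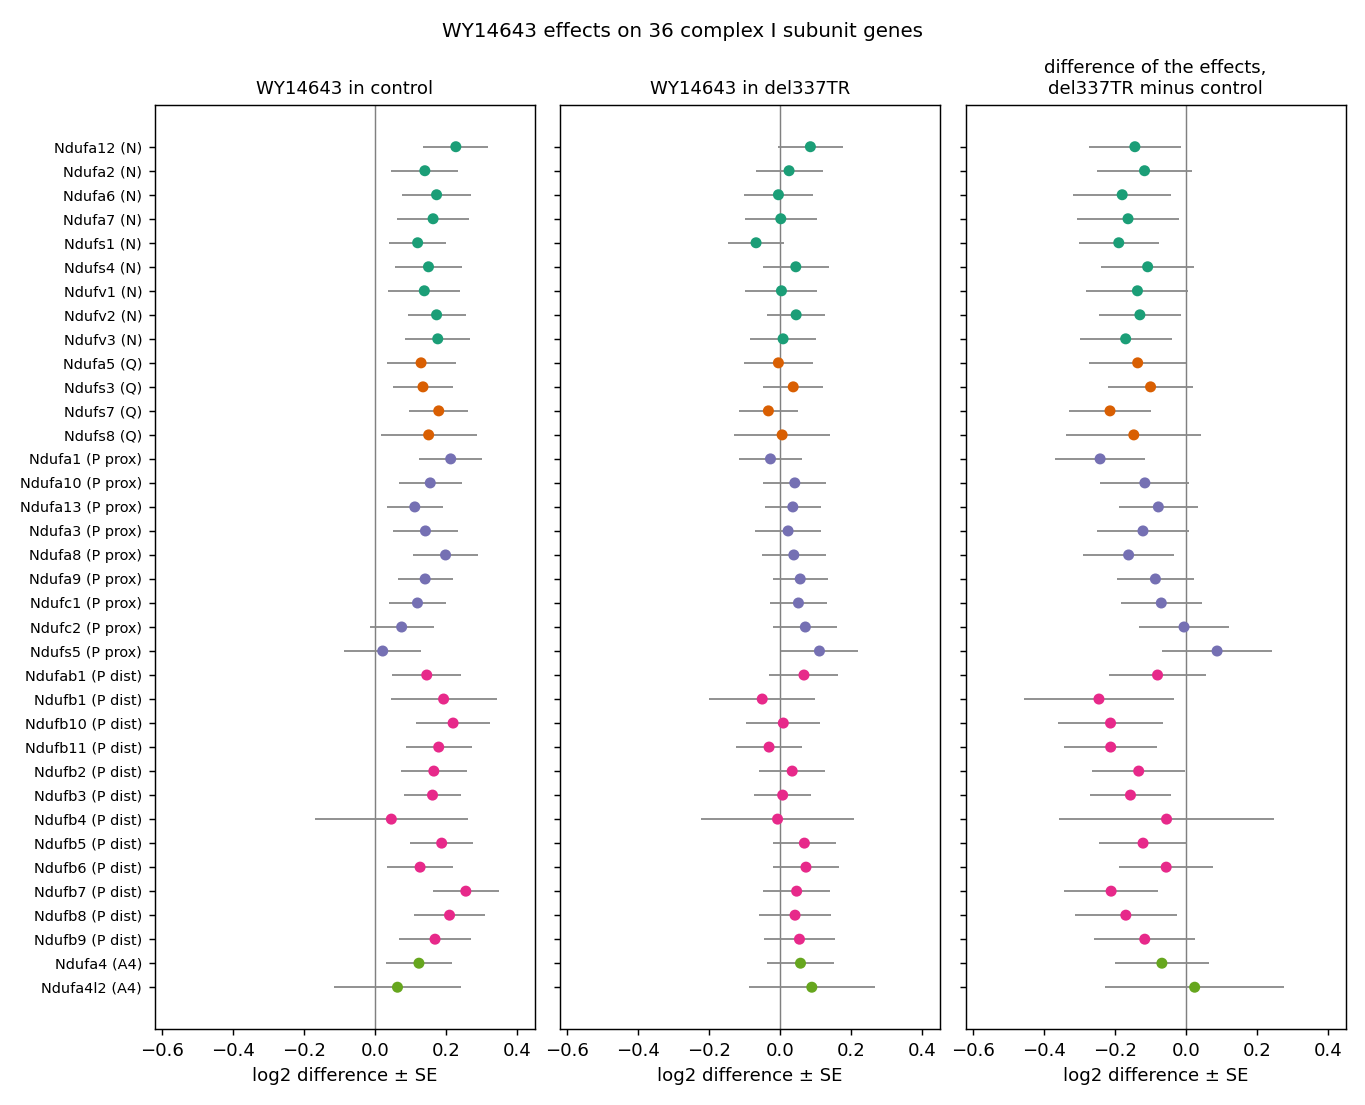
Log2 difference of each of the 36 subunit genes with its standard error, ordered and coloured by module (N, Q, proximal and distal pump arm, and Ndufa4 with its paralogue): WY14643 in control, WY14643 in del337TR, and the difference of the effects (del337TR minus control). All points lie above 0 for WY14643 in control, 28 of 36 for WY14643 in del337TR, and 34 of 36 lie below 0 for the difference.

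In the N module all 9 members were higher with WY14643 in controls (median 0.16). They comprise the core proteins Ndufv1, which binds NADH and its flavin cofactor, Ndufv2 and Ndufs1, which carry iron-sulphur clusters, and the accessory proteins Ndufv3, Ndufs4, Ndufa2, Ndufa6, Ndufa7 and Ndufa12. Signals of Ndufa12, at the joint of the N and Q modules, ran from 6404 to 7917 (median 6901) in control, from 7024 to 9748 (median 8088) in control with WY14643, from 6859 to 8342.5 (median 7276) in del337TR and from 6349.7 to 9987 (median 7359) in del337 with WY14643. Every treated control lay above the untreated median, and the ranges overlapped. The difference in controls was 0.23 ± 0.091 (limma adjusted p = 0.708), and in del337TR it was 0.085 ± 0.091 (adjusted p = 0.958). Without del337 with WY14643 replicate 4, 2 or 1 the latter was 0.024, 0.050 or 0.13.

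Ndufs1, the largest core subunit, had signals from 5149 to 7049 (median 6144) in control, from 6212 to 7502 (median 6375) in control with WY14643, from 6004 to 7264 (median 6483) in del337TR and from 5668 to 7185.5 (median 6078) in del337 with WY14643. Its untreated and treated controls overlapped, as did the other groups. It differed by 0.12 ± 0.080 with WY14643 in controls and by -0.068 ± 0.080 in del337TR, the lowest value of any member there (-0.041 without del337TR replicate 7 and -0.10 without del337 with WY14643 replicate 4). The difference of those effects was -0.19 ± 0.11 (95% interval -0.42 to 0.043, limma adjusted p = 0.956). Ndufs4, whose product holds the N module in place, had signals from 2749.5 to 3820.5 (median 3222) in control, from 3138 to 4336 (median 3691) in control with WY14643, from 2905 to 3296 (median 3115) in del337TR and from 2669 to 3969 (median 3158) in del337 with WY14643. The untreated del337TR arrays were the most tightly grouped, and all groups overlapped. Ndufs4 was 0.15 ± 0.093 with WY14643 in controls and -0.18 ± 0.093 in del337TR against control under WY14643 (limma adjusted p = 0.593). The latter became 0.064 when all probe sets of the gene were averaged.

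In the Q module Ndufs7, Ndufs8, Ndufs3 and the accessory Ndufa5 were all higher with WY14643 in controls (median 0.14), with values from 0.13 for Ndufa5 to 0.18 for Ndufs7. Ndufs7 carries the last iron-sulphur cluster before ubiquinone, and its promoter window with the YY1 sequence is printed above. Its signals ran from 6201.5 to 8359 (median 7528.5) in control, from 7638 to 9873.5 (median 8182) in control with WY14643, from 6713 to 8189.9 (median 7762) in del337TR and from 6496 to 8669 (median 7105) in del337 with WY14643. The treated controls stood highest, with every array above the medians of control and of del337 with WY14643, and the ranges overlapped. The difference was 0.18 ± 0.082 with WY14643 in controls (limma adjusted p = 0.735) and -0.034 ± 0.082 in del337TR. Under WY14643, del337TR stood -0.19 ± 0.082 against control (adjusted p = 0.518), the smallest adjusted p of any member in that comparison.

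Ndufs8, also an iron-sulphur protein, was the most variable of the bright members. Its signals ran from 8146 to 13022 (median 10432) in control, from 7067 to 15144.5 (median 11211) in control with WY14643, from 9614 to 12170.0 (median 10223) in del337TR and from 9488 to 13964 (median 10403) in del337 with WY14643. Treated controls held both the lowest and the highest array of all, so the groups overlapped fully. The difference with WY14643 in controls was 0.15 ± 0.13 (limma adjusted p = 0.853), and the gene's other probe sets gave other sizes. The 3 next brightest, with mean signals of 7061, 6836 and 3148, stood at 0.28 ± 0.12, 0.31 ± 0.10 and 0.26 ± 0.10 (limma adjusted p = 0.726, 0.698 and 0.698). In del337TR against control under WY14643 they stood at -0.33 ± 0.12, -0.29 ± 0.10 and -0.31 ± 0.10 (limma adjusted p = 0.436, 0.436 and 0.428), where the one used stood at -0.088 ± 0.13. For the difference of effects they stood at -0.39 ± 0.17, -0.37 ± 0.15 and -0.31 ± 0.14, beside -0.15 ± 0.19 for the one used. These 3 had an unadjusted p under 0.05 in all 3 comparisons and did not pass the adjusted threshold, so whether Ndufs8 is counted at the unadjusted threshold rests on the probe set chosen.

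In the proximal part of the pump all 9 members were higher with WY14643 in controls (median 0.14): Ndufa1, Ndufa3, Ndufa8, Ndufa9, Ndufa10, Ndufa13, Ndufc1, Ndufc2 and Ndufs5. Ndufa1, a small membrane subunit, had signals from 8535 to 11636 (median 9702) in control, from 10144 to 12658 (median 11227) in control with WY14643, from 9503 to 11111 (median 10449) in del337TR and from 8489 to 12770.0 (median 10165) in del337 with WY14643. Every treated control lay above the untreated median, and treated del337TR arrays spanned the range of all groups. Ndufa1 differed by 0.21 ± 0.090 with WY14643 in controls (limma adjusted p = 0.718) and by -0.028 ± 0.090 in del337TR. Among the bright members its difference of effects was the lowest, at -0.24 ± 0.13 (95% interval -0.50 to 0.019, adjusted p = 0.956).

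Ndufa8, a protein of the intermembrane space face whose window with the NRF1 sequence is printed above, had signals from 6499.8 to 9043 (median 8120.4) in control, from 8453 to 11226 (median 8742) in control with WY14643, from 7256 to 8961 (median 8196.5) in del337TR and from 7309 to 9886 (median 8125) in del337 with WY14643. Control with WY14643 replicate 7 stood apart at the top of its group, and the groups overlapped. The difference with WY14643 in controls was 0.20 ± 0.091 (limma adjusted p = 0.735). Ndufc2 was the bright member that differed least with WY14643 in controls, at 0.076 ± 0.090, and its value in del337TR was 0.071 ± 0.090. The latter was 0.0098 without del337 with WY14643 replicate 4, 0.12 without replicate 1 of that group and 0.037 without del337TR replicate 1. Another bright probe set of Ndufc2, with a mean signal of 5427, stood at 0.18 ± 0.087 in controls and -0.020 ± 0.087 in del337TR. The signals of the one used ran from 5992 to 7988 (median 6949) in control, from 6530.1 to 7773 (median 7253) in control with WY14643, from 6013 to 7389 (median 7143) in del337TR and from 5791 to 9351 (median 7116) in del337 with WY14643, so all groups overlapped.

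In the distal part of the pump all 12 members were higher with WY14643 in controls (median 0.17): Ndufab1 and Ndufb1 to Ndufb11. By the probe sets used, Ndufb7 had the largest difference and the smallest p of the 36 members in that comparison. Its signals ran from 6394 to 8349 (median 7129) in control, from 7753 to 11373 (median 8424) in control with WY14643, from 6604 to 8049 (median 7683) in del337TR and from 6958 to 9316 (median 7434) in del337 with WY14643. Every treated control lay above the untreated median, while the highest untreated arrays reached into the treated range. The difference was 0.26 ± 0.094 (95% interval 0.064 to 0.45, limma adjusted p = 0.698), and 0.19 without control with WY14643 replicate 7. In del337TR it was 0.046 ± 0.094.

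Ndufb10 had signals from 7031 to 9705 (median 8240.4) in control, from 7524.5 to 12503 (median 9468) in control with WY14643, from 8024 to 9360.4 (median 8093) in del337TR and from 6894.5 to 10484 (median 8423) in del337 with WY14643. The treated controls were the most widely spread and overlapped with the untreated ones. It differed by 0.22 ± 0.10 with WY14643 in controls (limma adjusted p = 0.737) and by -0.19 ± 0.10 in del337TR against control under WY14643, the latter -0.12 without control with WY14643 replicate 7. Ndufb8 and Ndufb9, like Ndufs8, are given because their probe sets had the highest mean signals. Ndufb8 ran from 8711 to 12557 (median 10097) in control, from 10775 to 13870.1 (median 11714) in control with WY14643, from 9264 to 12152 (median 11283) in del337TR and from 9103 to 14013 (median 10902) in del337 with WY14643. Ndufb9 ran from 10061 to 14419.5 (median 12262) in control, from 12172.5 to 15503 (median 13369) in control with WY14643, from 10387 to 14226 (median 12765) in del337TR and from 10686 to 16983.5 (median 12874) in del337 with WY14643. In both, the treated del337TR group held the highest array, and all groups overlapped. With WY14643 in controls Ndufb8 stood at 0.21 ± 0.10 (adjusted p = 0.739) and Ndufb9 at 0.17 ± 0.10 (adjusted p = 0.78) by limma. Ndufb2, Ndufb3, Ndufb5 and Ndufb6 stood between 0.13 for Ndufb6 and 0.19 for Ndufb5, and Ndufab1 at 0.15.

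Ndufa4 and Ndufa4l2 were described apart, because the NDUFA4 protein is now assigned to complex IV and Ndufa4l2 is its paralogue, known to be induced by hypoxia. Ndufa4 had signals from 8230.0 to 11580.3 (median 9747) in control, from 9803 to 10994 (median 10795) in control with WY14643, from 8798 to 11003 (median 10295) in del337TR and from 8826 to 13932 (median 9950.1) in del337 with WY14643. Its groups overlapped fully, and the difference with WY14643 in controls was 0.12 ± 0.094 (limma adjusted p = 0.824). Ndufa4l2 had signals from 165 to 227 (median 189) in control, from 148 to 325 (median 209) in control with WY14643, from 146 to 395 (median 216) in del337TR and from 206 to 268.5 (median 236) in del337 with WY14643. The highest arrays came from del337TR and from control with WY14643, and no comparison of Ndufa4l2 passed the threshold. The largest was 0.20 ± 0.18 for del337TR against control under WY14643 (adjusted p = 0.795).

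**Figure D3:**
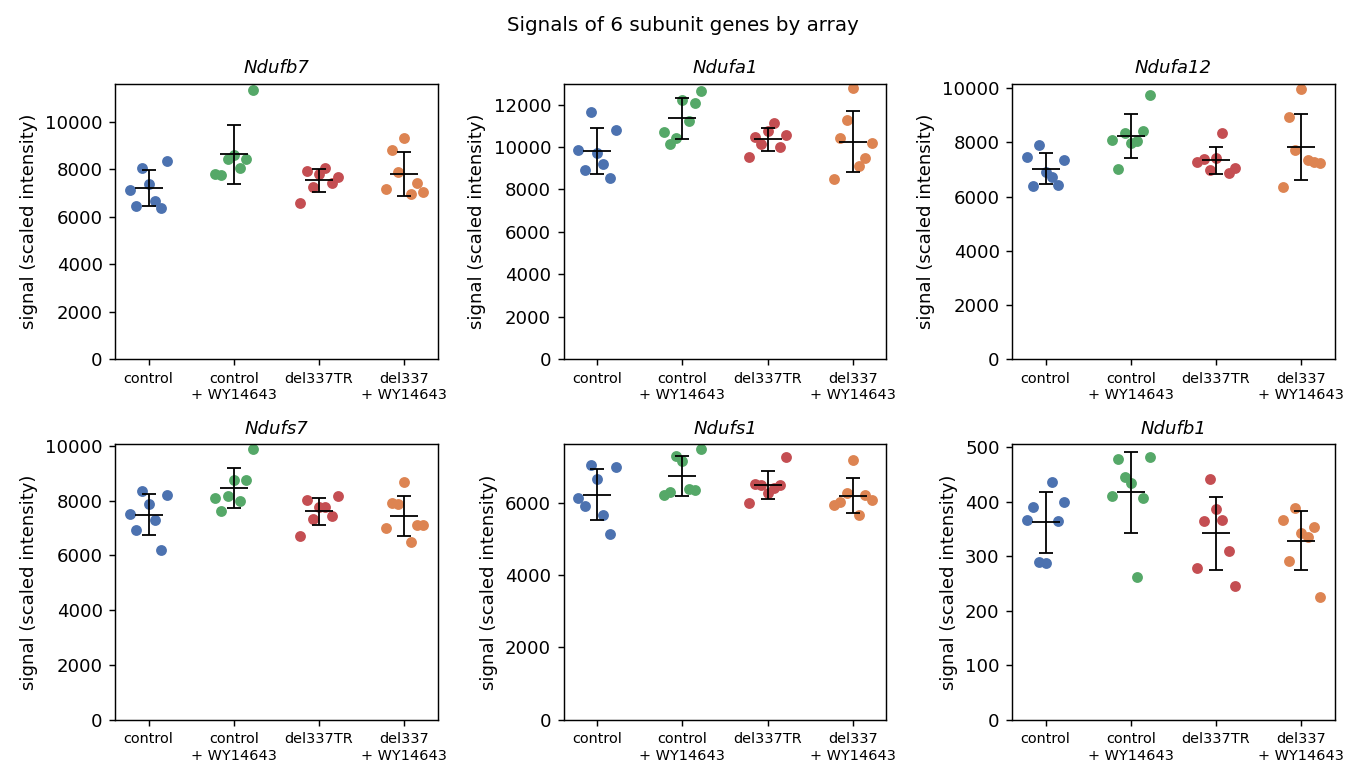
Signal of 6 subunit genes on each array by group, with the group mean and SD as bars (n = 7 each); axes start at 0. In every gene shown the treated controls have the highest group mean, and the groups overlap.

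The 4 dim members, whose mean signals lay under 1000, a limit chosen after the values were seen, gave less even differences than the bright ones. Ndufb4 had signals from 23.7 to 72.9 (median 45.9) in control, from 34.3 to 57.8 (median 46.1) in control with WY14643, from 30.1 to 72.5 (median 64.9) in del337TR and from 37.2 to 69.7 (median 54.8) in del337 with WY14643. Ndufb4 was higher in del337TR than in control by 0.33 ± 0.21 without WY14643 (limma adjusted p = 0.999), or 0.18 without control replicate 1, and by 0.27 ± 0.21 under it. The groups overlapped, and its mean signal of 51.2 lay below the median signal of every array. Ndufb1 had signals from 288 to 436 (median 365.5) in control, from 261 to 482 (median 434) in control with WY14643, from 246 to 442 (median 364.5) in del337TR and from 225 to 388 (median 342) in del337 with WY14643. Replicate 5 of the treated controls lay below the rest of its group, and under WY14643 del337TR stood -0.34 ± 0.15 against control (adjusted p = 0.523). Ndufs5 had signals from 609.9 to 916 (median 756) in control, from 680.4 to 974 (median 732) in control with WY14643, from 619 to 801 (median 708.5) in del337TR and from 625.5 to 895 (median 786) in del337 with WY14643, and its largest difference was 0.11 ± 0.11 with WY14643 in del337TR (adjusted p = 0.949), or 0.073 without del337 with WY14643 replicate 5. A probe set's signal also depends on its own sequence, so bright and dim describe probe sets, and no order of transcript levels between genes is read from them.

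The subunits' difference with WY14643 in controls was set beside that of other probe sets in the same range of signal, and it changed in size with the scaling. Among the 953 other probe sets with mean signals between 3291 and 12706.5, the range of the bright members, the median was 0.099, 84.6% were higher and 10.6% were higher at an unadjusted p under 0.05. These others leave out only the probe sets used for the members, so they include further probe sets of the same genes. In the brightest of 20 equal bins of all probe sets the median was 0.073, and the lowest median of any bin was -0.078. With quantile normalization the members' median was 0.047 with 32 of 36 higher, the bright others stood at -0.0018 with 48.7% higher, and all probe sets at 0.0026. With each array centred on its median, the members' median was 0.21 with 36 of 36 higher. The 15 ventricular markers were also all higher with WY14643 in controls (median 0.15), and 8 of them were higher after quantile normalization (median 0.0062). Fibroblast markers stood lower (7 of 9, median -0.23), as did endothelial markers (6 of 8, median -0.096), while markers of smooth muscle and pericytes (3 of 6 higher, median 0.065) and atrial markers (3 of 6, median 0.073) were split and 4 of 5 adipocyte markers were higher (median 0.074). The actin 3' to 5' ratio was 1.39 ± 0.21 in control with WY14643 and 1.25 ± 0.12 in control (SD, n = 7), and with that ratio as a covariate the members' median was 0.11 with 0 members at an unadjusted p under 0.05. Beyond those values, the part of markers and RNA quality in the result was not tested.

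**Figure D4:**
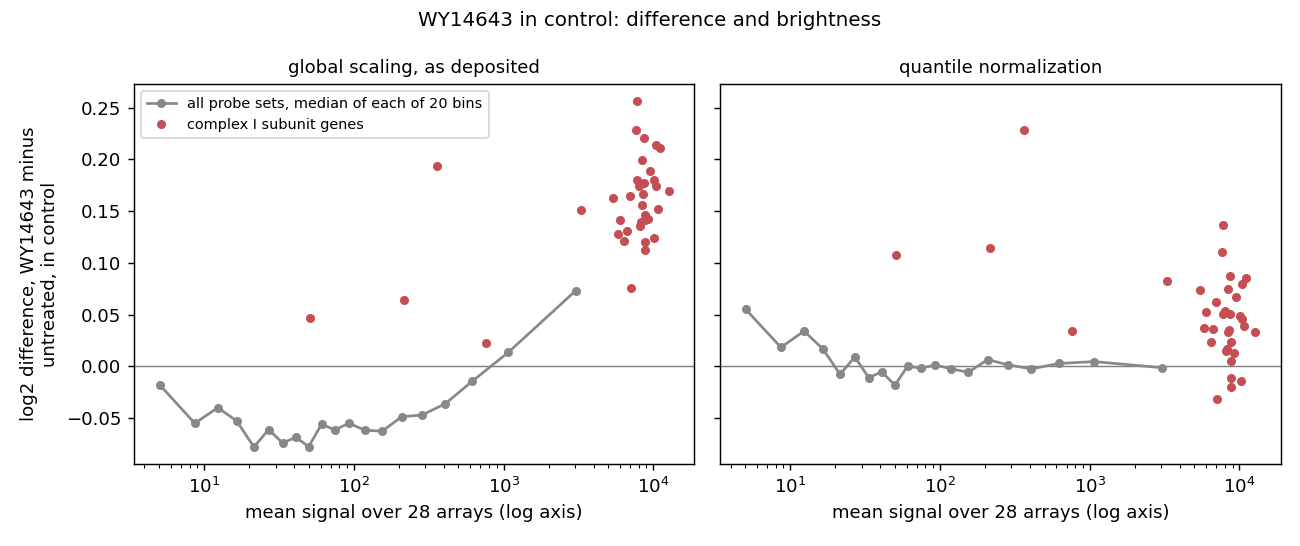
Log2 difference with WY14643 in control against mean signal (log axis), for the 36 subunit genes (red) and as the median of all probe sets in 20 bins of brightness (grey), with the deposited scaling on the left and quantile normalization on the right. With the deposited scaling the bin medians lie between -0.078 and 0.073 and are highest in the brightest bin, and with quantile normalization the brightest bin lies at -0.0014 and the subunits' median at 0.047.

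The count of 9 members at an unadjusted p under 0.05 depended on single arrays and on the model. It was 2 without control replicate 2, 15 without control replicate 3, 3 without control replicate 5, 2 without control replicate 6, 3 without control with WY14643 replicate 4, 4 without replicate 6 and 1 without replicate 7 of that group. It was 1 with quantile normalization, 3 with only the groups compared in the fit, 4 with sex as a covariate and 16 with limma's trend and robust settings.

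WY14643 in del337TR gave smaller differences with mixed signs. The median difference was 0.036, from -0.068 for Ndufs1 to 0.11 for Ndufs5, with 28 members higher and 8 lower, beside a median of 0.016 and 53.1% higher over all probe sets. Of the 32 bright members 26 were higher (median 0.036), beside 67.1% of the other bright probe sets (median 0.029). limma called 0 of 36, with a lowest adjusted p of 0.949 and 0 members at an unadjusted p under 0.05. Over all probe sets 0% were called, and 2.95% were higher and 2.83% lower at the unadjusted threshold. No member had groups without overlap, beside 0.0377% of all probe sets higher and 0.0355% lower. The sign was not stable: 13 of 36 members were higher with quantile normalization (median -0.012), 17 with arrays centred on their medians (median -0.0013), and the median was -0.014 without del337 with WY14643 replicate 4. Without del337TR replicate 1 it was 0.0086. Ventricular markers were higher in 14 of 15 (median 0.10; 8 of 15 and 0.0025 with quantile normalization). Lower were 5 of 6 atrial markers (median -0.35), 5 of 6 markers of smooth muscle and pericytes (median -0.35), 6 of 9 fibroblast markers (median -0.082) and 3 of 5 adipocyte markers, a mostly dim list (median -1.08), and the part of these in the result was not tested.

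The WY14643 effect in del337TR minus that in control was tested as a difference of its own. It was lower in 34 of 36 members, with a median of -0.13 and a median standard error of 0.13, beside a median of 0.044 and 44.4% lower over all probe sets. limma called 0 of 36 (lowest adjusted p = 0.956), beside 0% of all probe sets, and 0 members had an unadjusted p under 0.05, beside 3.26% higher and 1.65% lower over all. That count was 2 without control replicate 3, 1 without del337TR replicate 1, 1 without control with WY14643 replicate 2 and 3 without del337 with WY14643 replicate 4. All 32 bright members were lower, from -0.24 for Ndufa1 to -0.0051 for Ndufc2, and Ndufs5 (0.088) and Ndufa4l2 (0.025) were the members above 0. By module the medians were -0.14 in the N module, -0.14 in the Q module, -0.086 in the proximal and -0.14 in the distal arm. Quantile normalization gave a median of -0.066 with 6 of 36 higher, and centring a median of -0.23 with all 36 lower. The other bright probe sets had a median of -0.068 with 31.1% higher, and -0.0023 after quantile normalization. Among cell type markers, 11 of 15 ventricular markers (median -0.044), all 6 of smooth muscle and pericytes (median -0.26) and 4 of 5 of the mostly dim adipocyte markers (median -1.22, 3 of them at an unadjusted p under 0.05) were lower too, and their part in the result was not tested. Fibroblast markers (5 of 9 higher, median 0.0039), endothelial markers (4 of 8, median 0.0037) and atrial markers (3 of 6, median -0.42) were split. For the probe sets used, the 95% intervals of single members lay between -0.68 and 0.57. The test therefore did not separate the responses of the strains for any subunit, and it did not show that they were alike.

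Ndufb11, a subunit of the distal arm, was among the smallest p-values of the difference of effects and of the strain comparison. Its signals ran from 7862.5 to 11655 (median 9103) in control, from 9516 to 11078 (median 10429) in control with WY14643, from 8849 to 11195 (median 10486) in del337TR and from 8927 to 13661 (median 9638) in del337 with WY14643. Control replicate 3 and del337 with WY14643 replicate 4 stood far above the rest of their groups, and all groups overlapped. The value was -0.21 ± 0.13 for the difference of effects (limma adjusted p = 0.956) and 0.16 ± 0.093 for del337TR against control without WY14643 (adjusted p = 0.999).

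The strain was compared without and with the drug, and these comparisons share their groups with those above. In untreated animals 31 members were higher in del337TR and 5 lower (Ndufb1, Ndufb6, Ndufc1, Ndufs4 and Ndufs5), with a median of 0.052, beside -0.011 and 47.8% higher over all probe sets. Of the 32 bright members 29 were higher (median 0.052), beside 78.3% of the other bright probe sets (median 0.047). limma called 0 of 36 (lowest adjusted p = 0.999), beside 0.00222% of all probe sets, and 0 had an unadjusted p under 0.05, beside 1.66% higher and 2.35% lower over all. Groups without overlap were found for no member, beside 0.0178% of all probe sets higher and 0.0511% lower. The count at the unadjusted threshold was 1 without control replicate 3, control replicate 6, del337TR replicate 1 or del337TR replicate 3. With quantile normalization 14 of 36 were higher (median -0.0042), and with centring 31 (median 0.070). All 15 ventricular markers were also higher in del337TR (median 0.034), and 5 of them with quantile normalization (median -0.0062). All 6 atrial markers (median 0.98), all 5 adipocyte markers (median 0.49), 8 of 9 fibroblast markers (median 0.12) and 5 of 6 markers of smooth muscle and pericytes (median 0.14) were higher as well, and 3 of 8 endothelial markers (median -0.019). Their part in the result was not tested.

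Under WY14643 the direction of most members was the opposite, with 33 lower in del337TR than in control and 3 higher (Ndufa4l2, Ndufb4 and Ndufc2). The median was -0.086, beside 0.037 and 44.4% lower over all probe sets, and -0.019 with 42.6% higher among the other bright ones. limma called 0 of 36 (lowest adjusted p = 0.518), beside 0% of all. At an unadjusted p under 0.05 Ndufs7 and Ndufb1 were lower, 2 of 36, beside 3.61% lower and 5.25% higher over all. Among the other bright probe sets 5.67% were lower and 4.51% higher at that threshold, so the members' count was near that share. No member was without overlap, beside 0.0555% of all probe sets higher and 0.0511% lower. The count at the unadjusted threshold was 1 without control with WY14643 replicate 3 or 6, 0 without replicate 4 or 7, 1 without del337 with WY14643 replicate 1, 5 or 6, 0 without replicate 7 and 5 without replicate 4. With quantile normalization 5 of 36 were higher (median -0.075), and with centring 2 (median -0.17). The median was -0.14 without del337 with WY14643 replicate 4, -0.044 without replicate 1 of that group, -0.048 without control with WY14643 replicate 7 and -0.024 with the actin 3' to 5' ratio as a covariate, which gave 0 members at the unadjusted threshold. All 9 fibroblast markers (median 0.28) and all 6 atrial markers (median 0.90) were higher in del337TR under WY14643, as were 5 of 8 endothelial markers (median 0.093). All 6 markers of smooth muscle and pericytes (median -0.10), 4 of 5 of the mostly dim adipocyte markers (median -0.73, 3 of them at an unadjusted p under 0.05) and 9 of 15 ventricular markers (median -0.015) were lower. Their part in the result was not tested.

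Other genes of oxidative phosphorylation were also higher with WY14643 in controls, apart from the assembly factors and regulators described next, and none of them passed the threshold in any comparison. All 10 genes of complex III and cytochrome c were higher (median 0.16), as were all 10 of complex IV (0.17), all 15 of ATP synthase (0.16) and all 4 of complex II (0.13). At an unadjusted p under 0.05 these were 3, 1, 3 and 0 genes, all higher, beside 2.39% of all probe sets. Most of these genes are bright, and of the 953 other bright probe sets above, 84.6% were higher (median 0.099) and 10.6% at that threshold. Those 953 include genes of these lists. The 2 genes with the smallest p-values in each complex were Cyc1, the cytochrome subunit of complex III (0.27 ± 0.096), Uqcr11 of the same complex (0.26 ± 0.099), Atp5l (0.21 ± 0.092) and Atp5g1 (0.21 ± 0.095) of ATP synthase, Cox7a1 (0.23 ± 0.11) and Cox5b (0.20 ± 0.10) of complex IV, and Sdhd (0.14 ± 0.078) and Sdhb (0.15 ± 0.093) of complex II. Uqcrq of complex III (0.24 ± 0.10) and Atp5d of ATP synthase (0.17 ± 0.084) were the others at an unadjusted p under 0.05. With quantile normalization the medians were 0.041, 0.029, 0.027 and 0.012 in the same order. In del337TR the medians with WY14643 were 0.054, 0.053, 0.018 and 0.016, and for the difference of effects -0.13, -0.11, -0.12 and -0.13.

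The genes that build complex I or regulate mitochondrial genes were less even. Of 17 measured assembly factors 12 were higher and 5 lower with WY14643 in controls (median 0.075). At an unadjusted p under 0.05, 1 was higher and 1 lower, beside 2.39% higher and 4.36% lower over all probe sets. The smallest p-values over the 5 comparisons were those of Tmem126b, a factor of the membrane arm, which stood at -0.62 ± 0.22 with WY14643 in controls (limma adjusted p = 0.698), and Ndufaf5, which stood at -0.28 ± 0.099 in del337TR against control under WY14643 (limma adjusted p = 0.436). Of 16 regulators 8 were higher and 8 lower (median 0.0067). At an unadjusted p under 0.05, 1 was higher and 1 lower, beside the same 2.39% and 4.36%, so neither list stood out by these counts. The lowest value was that of Ppargc1a, at -0.49 ± 0.23 (limma adjusted p = 0.736), with Ppargc1b at -0.48 ± 0.26. In del337TR against control under WY14643, Ppargc1a stood at 0.55 ± 0.23 (limma adjusted p = 0.493), while 12 of the 16 regulators were lower. The regulators with the smallest p over the 5 comparisons were Polrmt and Sirt3. Polrmt, the mitochondrial RNA polymerase, had a difference of effects of -0.35 ± 0.13 (limma adjusted p = 0.956). Sirt3, a mitochondrial deacetylase, stood at -0.34 ± 0.14 in del337TR against control under WY14643 (limma adjusted p = 0.488).

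**Figure D5:**
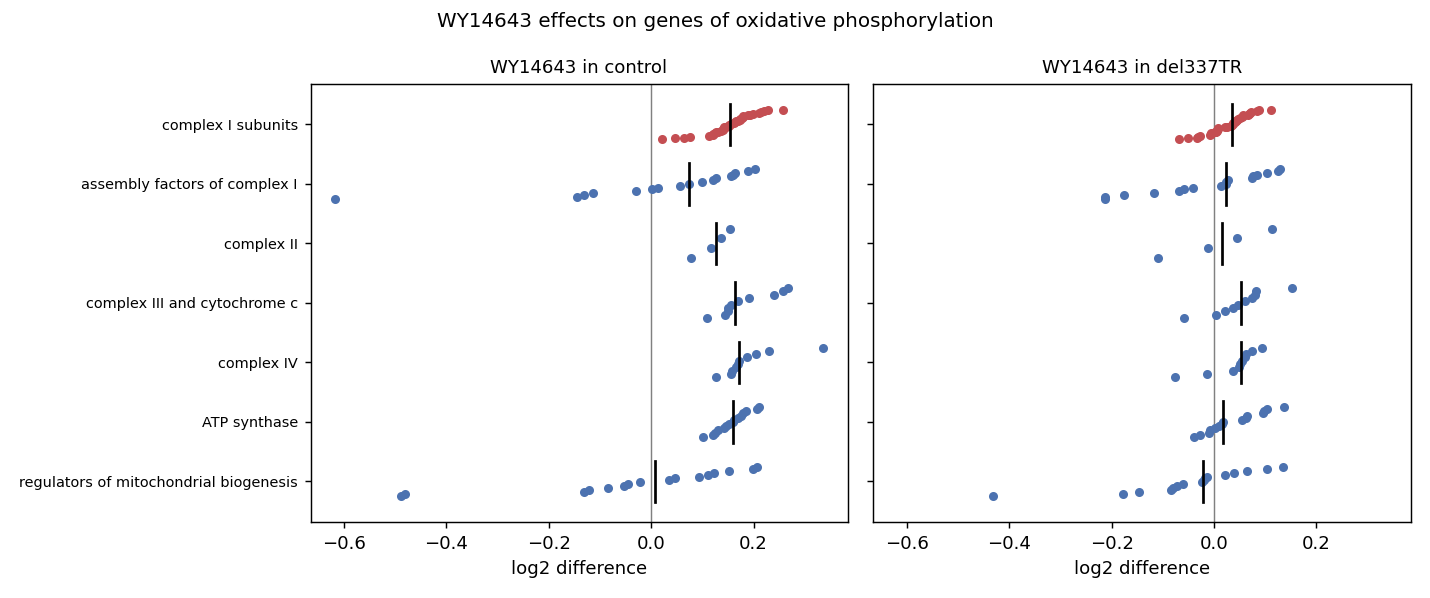
Log2 difference with WY14643 of each gene in 7 lists of oxidative phosphorylation, in control (left) and del337TR (right), with the median of each list as a black bar. In control the medians of the respiratory complexes and ATP synthase lie between 0.13 and 0.17, and in del337TR between 0.016 and 0.054.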

How the data were processed

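Heart RNA of 28 mouse samples in 4 groups of 7 was measured on 1-colour arrays. The deposited values are intensity values on a linear scale, up to 26183.2. The submitters' processing notes name RMA, but the values were not on a log scale. The mean of an array with 2% trimmed at each end, averaged over the arrays, was 250.0, so the values were treated as globally scaled signals. Software for that scaling, batch and scan times: not given in the sources used here. Array medians ran from 60.1 to 77.8, and the number of arrays limits the precision.

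Of 45101 probe sets, 64 array controls were left out and 45037 tested. In the probe annotation 34945 had 1 symbol, 932 several and 9160 none, and 1 symbol was required to name a gene. Signals were floored at 0.1 (3 values were below), log2 transformed and fitted with limma 3.58.1 in R 4.3.3 (eBayes without trend, 4 group means over all arrays, 24 residual degrees of freedom). Tests were two-sided, adjusted by Benjamini and Hochberg over all probe sets, and intervals are at 95%. The fit was tested on simulated data.

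The members and gene lists were chosen with earlier results of these data known. Array values are given for the 4 members with the smallest p in each comparison, the 3 with the highest and the 3 with the lowest mean signal, and Ndufa4 with Ndufa4l2. Alternatives were log2 of the value plus 16, a filter at the 40th percentile of the mean, quantile normalization, centring, trend and robust settings, array weights, only the groups compared, a block for the replicate number, the mean of a gene's probe sets, and leaving out each array. Sex and the actin 3' to 5' ratio as covariates, the alternatives for counts at an unadjusted p, quantile normalization for the lists and the brightness limit of 1000 were added after seeing the data.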

Additional observations from a re-analysis of the deposited data

Results flagged for a closer look

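Among the named members and the mean log2 signal of all 36, 76 groups of 7 arrays were searched for a highest or lowest array that stood apart from the rest of its group, and 10 were found. Chance gives about 1 in 20 such groups, and members that vary together are not independent searches. In control with WY14643, replicate 7 was far above the rest for Ndufb7 (11373, others 7753 to 8595), Ndufa8 (11226, others 8453 to 9459) and Ndufb8 (13870.1, others 10775 to 12105). In del337 with WY14643, replicate 4 was far above for Ndufb11 (13661, others 8927 to 10546), Ndufs1 (7185.5, others 5668 to 6264) and Ndufs8 (13964, others 9488 to 10962). The remaining far arrays were del337TR replicate 5 for Ndufa12 (8342.5, others 6859 to 7419), del337TR replicate 7 for Ndufs1 (7264, others 6004 to 6536), control replicate 3 for Ndufb11 (11655, others 7862.5 to 9379) and, as the only low one, control with WY14643 replicate 5 for Ndufb1 (261, others 406.5 to 482).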

How the results depend on the processing

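With 7 arrays a group, no member passed the threshold under any alternative or without any array. Members' medians in the 5 comparisons stayed within 0.12 of the reported value, which is the SD between single arrays of a group. That limit is larger in size than the medians of 0.036, 0.052 and -0.086, so it does not show them to be stable. Quantile normalization turned the sign for WY14643 in del337TR (-0.012) and for the strain without WY14643 (-0.0042), and centring turned the former (-0.0013). For WY14643 in controls quantile normalization lowered the median from 0.15 to 0.047. Leaving out arrays gave medians of 0.13 to 0.19 for WY14643 in controls, -0.014 to 0.064 for WY14643 in del337TR, 0.0098 to 0.086 for the strain without WY14643, -0.14 to -0.044 under it and -0.18 to -0.095 for the difference of effects.

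Counts of members at an unadjusted p under 0.05 moved more. For WY14643 in controls the count of 9 became 1 with quantile normalization, 16 with trend and robust settings, 3 with only the groups compared, 4 with sex and 0 with the actin ratio as covariate, and 1 to 15 when arrays were left out. For the strain without WY14643 the count of 0 became 1 with trend and robust settings and 1 with array weights, and 0 to 1 when arrays were left out. Under WY14643 the count of 2 became 5 with centring, 5 with trend and robust settings, 0 with only the groups compared, 1 with sex, 0 with the actin ratio, and 0 to 5 when arrays were left out. For the difference of effects the count of 0 became 2 with centring, 2 with trend and robust settings, 2 with array weights, and 0 to 3 when arrays were left out. The cause was not tested.

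Of 776 alternative values of named members, 775 kept their direction and side of the threshold, and Ndufs4 under WY14643 (-0.18) became 0.064 with the mean of its probe sets. Many of these values could not change direction. Leaving out an array of a group outside a comparison leaves its difference as it was. So do the replicate block, trend and robust settings, the percentile filter and a fit of only the groups compared. These members were also picked for the smallest p in each comparison, so the count does not measure stability. With the replicate number as a replicate block the count was 8 for WY14643 in controls and 1 for the strain under WY14643. Each number stands once in every group, so the block could not change the medians (0.15, 0.036, 0.052, -0.086 and -0.13). Same-numbered samples deviated together weakly at most (42 pairs, correlations from -0.061 to 0.10, median 0.022), so the numbers were not taken to pair samples. Differently numbered samples were not compared in this way, so a weak pairing cannot be told from none. Dim probe sets limit Ndufb4, Ndufb1, Ndufa4l2 and Ndufs5.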

Other observations

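The 36 members had 78 probe sets in all, with several for 20 members and 1 for 16. Of the 78, 75 were higher with WY14643 in controls, 52 with WY14643 in del337TR, 60 in del337TR without WY14643, 11 under it, and 9 for the difference of effects, and limma called 0 of 78 in each. In some genes probe sets had opposite signs with 1 at an unadjusted p under 0.05. Ndufs4 had a probe set of mean signal 17.1 at -1.23 ± 0.55 with WY14643 in controls (limma adjusted p = 0.733), beside values of 0.15, 0.16 and 0.27 for its 3 brighter ones, and at 2.02 ± 0.77 for the difference of effects, where the brighter ones stood at -0.11, -0.11 and -0.29. Ndufb8 had a probe set of mean signal 41.4 at -0.38 ± 0.38 with WY14643 in controls. Ndufc2 had one of mean signal 23.3 at 0.79 ± 0.36 with WY14643 in del337TR, and one of 5427 at -0.020 ± 0.087. Ndufab1 had one of mean signal 27.2 at 1.04 ± 0.46 in del337TR against control without WY14643, with 2 others at -0.35 and -0.33. Under WY14643 those 2 stood at -0.48 ± 0.20 and -0.52 ± 0.23 (limma adjusted p = 0.495 and 0.509). For Ndufb2 a bright probe set that was not the one used stood at -0.18 ± 0.081 under WY14643 (limma adjusted p = 0.543), and a dim one of mean signal 82.0 at 0.19 ± 0.24.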
